A study of Mus musculus with 30 samples.

Results

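The genes described here are the IL-20 subfamily cytokines and their receptors, 8 genes taken by name: the ligands Il19, Il20 and Il24, the related ligand Il10, and the receptor chains Il20ra, Il20rb, Il22ra1 and Il10rb. They were looked up by gene symbol among 45037 array probe sets. A probe set was matched to 6 of the 8 genes, 1 for each gene and none shared with another gene, and all 6 were among the 36029 probe sets tested. Il19 and Il22ra1 were not analysed here.

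The study measured back skin RNA of wild type (WT) mice and of mice deficient in D6, an atypical chemokine receptor that takes up and degrades inflammatory CC chemokines. The mice were female, 8 to 12 weeks old and of the strain 129–C57BL/6. Their shaved skin received 3 applications of 50 uM TPA, a phorbol ester irritant dissolved in acetone, 24 hours apart, and was sampled on day 1, 2, 4 or 6 afterwards. Day 0 stands for control mice of each genotype that received acetone alone, although their sample titles read untreated. Affymetrix arrays, 1 for each sample, were run in triplicate for the 10 combinations of genotype and day, which makes 30 arrays with 3 in a group. Values are log2 intensities, and the array medians ran from 5.64 to 5.80. The number of arrays limits the precision: with 3 against 3, the smallest p of an exact permutation test is 0.1. The gene of the D6 receptor, Ccbp2, is read by 3 probe sets. For 1 of these the 15 WT arrays had a median of 4.98 (4.15 to 5.76) and the 15 D6-deficient arrays one of 3.47 (3.30 to 3.86), with no overlap, whereas on the other two the ranges of the genotypes overlapped.

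IL-19, IL-20 and IL-24 are made by keratinocytes and myeloid cells and act mainly on epithelium. They signal through a receptor of the chains IL-20RA and IL-20RB, and IL-20 and IL-24 also through IL-22RA1 paired with IL-20RB, to JAK kinases and STAT3, whereas IL-10 and IL-22 receptors use IL-10RB as their shared second chain. In skin these signals are known for driving keratinocyte growth and antimicrobial genes and for holding back terminal differentiation, and they are prominent in psoriasis.

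Il24, Il20 and Il19 are next to each other on mouse chromosome 1 in the RefSeq gene table (GRCm38.p6), and only Gm41952 stands between Il19 and Il10 there. The receptor chains lie apart, with Il20ra on chromosome 10, Il20rb on chromosome 9 and Il10rb on chromosome 16 beside the interferon receptor gene Ifnar2. Promoters of 250 bases before and 50 after the start were in the RefSeq table for 5 of the 8 genes. The 3 of them with array values, Il20, Il20ra and Il20rb, are printed. Capitals mark a match to TGANTCA, the phorbol ester response element bound by AP-1. The STAT site TTCNNNGAA was searched as well, each on both strands.
Il20, chr1:130911247-130911546, minus strand: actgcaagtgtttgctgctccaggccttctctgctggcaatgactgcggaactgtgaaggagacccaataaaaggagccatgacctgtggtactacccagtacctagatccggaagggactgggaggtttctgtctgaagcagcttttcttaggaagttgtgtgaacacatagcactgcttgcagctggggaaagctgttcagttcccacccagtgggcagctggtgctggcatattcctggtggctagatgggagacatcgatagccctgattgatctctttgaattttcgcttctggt
Il20ra, chr10:19712337-19712636, plus strand: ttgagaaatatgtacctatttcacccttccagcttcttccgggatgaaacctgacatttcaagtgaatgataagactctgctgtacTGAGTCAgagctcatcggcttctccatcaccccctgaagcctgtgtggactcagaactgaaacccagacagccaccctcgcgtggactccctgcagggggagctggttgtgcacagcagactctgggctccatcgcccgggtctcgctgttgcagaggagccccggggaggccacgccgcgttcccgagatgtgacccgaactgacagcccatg
Il20rb, chr9:100486424-100486723, minus strand: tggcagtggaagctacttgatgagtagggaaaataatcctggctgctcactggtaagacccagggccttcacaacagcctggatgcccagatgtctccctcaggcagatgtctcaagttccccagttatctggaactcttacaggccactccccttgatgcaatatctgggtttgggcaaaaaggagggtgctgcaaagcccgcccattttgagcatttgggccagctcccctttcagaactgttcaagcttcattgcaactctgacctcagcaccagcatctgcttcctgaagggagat
The Il20ra window held 1 TGAGTCA, 164 bases before the start, and the other two windows held no match to either motif. Of all 32851 promoters in the table, 7.81% hold TGANTCA and 8.30% hold TTCNNNGAA.

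Il24 encodes a ligand of both receptor pairs. In WT skin its log2 intensities in replicates 1, 2 and 3 were 3.91, 3.72 and 3.58 at day 0, 4.23, 4.01 and 3.69 at day 1, 3.78, 4.05 and 4.21 at day 2, 7.77, 6.996 and 8.00 at day 4, then 3.87, 4.39 and 3.76 at day 6. In D6-deficient skin they were 3.79, 3.86 and 3.79 at day 0, 5.16, 5.07 and 4.35 at day 1, 4.80, 5.53 and 5.29 at day 2, 8.46, 7.94 and 7.81 at day 4, then 4.26, 4.85 and 3.74 at day 6. The day 4 samples of both genotypes stood above all other samples, and the D6-deficient samples of days 1 and 2 stood above every WT sample of the same day. In bulk skin, fewer cells of a type and less RNA per cell cannot be told apart. Il24 rose at day 4 by 3.86 in WT skin, which is 14.5-fold (SE 0.27, adjusted p = 2.4e-10), and by 4.25 in D6-deficient skin, which is 19.1-fold (SE 0.27, adjusted p = 3.3e-11), where the adjusted p is that of limma over all tested probe sets and 0.05 is the threshold. Its control levels were near the lowest mean kept, 3.72, so low signal limits what these folds can show.

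In D6-deficient skin Il24 had also risen by day 1 (1.04, adjusted p = 0.0044) and day 2 (1.39, adjusted p = 2.8e-04). At day 2 its level in D6-deficient skin exceeded that in WT skin by 1.19 (2.29-fold, SE 0.27, 95% interval 0.63 to 1.76, adjusted p = 0.0099), and by 1.16 and 1.39 within the 2 sets of arrays that the hybridization controls separate. This difference no longer passed without WT day 2 replicate 1 (1.08, adjusted p = 0.064) or D6-deficient day 2 replicate 2 (1.03, adjusted p = 0.080). The genotypes overlapped at day 4, where the difference was 0.48 (95% interval -0.09 to 1.05, adjusted p = 0.61). Their changes from day 0 differed by 1.11 at day 2 (SE 0.39, 95% interval 0.31 to 1.91), which did not pass (adjusted p = 0.10), and by 0.80 at day 1 (adjusted p = 0.52). Ordered by mean, the level was 8.07 (SD 0.34) in D6-deficient and 7.59 (SD 0.53) in WT skin at day 4, then 5.21, 4.86 and 4.28 in D6-deficient skin of days 2, 1 and 6, and 3.73 to 4.01 in the remaining groups. The step from WT day 4 to D6-deficient day 2 was the 1 of the 9 steps between neighbours in this order without overlap.

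Il20 encodes another ligand of both pairs, made by keratinocytes and myeloid cells. The WT values in replicates 1, 2 and 3 were 5.27, 4.93 and 4.77 at day 0, 5.29, 4.95 and 4.88 at day 1, 6.10, 5.38 and 5.04 at day 2, 4.65, 4.88 and 5.05 at day 4, then 5.06, 4.82 and 4.65 at day 6. The D6-deficient values were 6.89, 5.46 and 5.44 at day 0, 4.59, 4.62 and 4.88 at day 1, 5.33, 4.32 and 4.59 at day 2, 4.82, 4.90 and 5.03 at day 4, then 4.54, 4.49 and 4.79 at day 6. The D6-deficient controls stood above the WT controls and above all D6-deficient samples after TPA, and replicate 1 of these controls was far above the other two. In D6-deficient skin Il20 fell at every day after TPA, with differences from day 0 of -1.23 at day 1 (SE 0.30, adjusted p = 0.0021), -1.18 at day 2 (adjusted p = 0.0026), -1.01 at day 4 (adjusted p = 0.0081) and -1.32 at day 6 (adjusted p = 0.0015). Without that replicate the differences were -0.75 (adjusted p = 0.027), -0.70 (adjusted p = 0.036), -0.53 (adjusted p = 0.11) and -0.84 (adjusted p = 0.017), so the day 4 call was lost. By the methods' t-test, unadjusted, none of these 4 differences passed, and in limma with only the arrays of the contrast those of days 4 and 6 did not (adjusted p = 0.055 and 0.052). The mean of Il20 over all arrays, 5.01, was below the lowest array median, 5.64, so low signal may limit these values.

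In WT skin Il20 did not pass at any day, and its day 2 mean was 0.52 above day 0 (adjusted p = 0.21). The change from day 0 to day 2 was lower in D6-deficient than in WT skin by a difference of -1.70 (SE 0.42, 95% interval -2.57 to -0.84, adjusted p = 0.016). It did not pass without WT day 2 replicate 1 (-1.40, adjusted p = 0.063) or D6-deficient day 2 replicate 2 (-1.49, adjusted p = 0.061), nor with only the arrays of the contrast (adjusted p = 0.097) or by the methods' t-test adjusted (adjusted p = 0.16). The differences between the changes at days 1, 4 and 6, of -1.29, -0.88 and -1.18, did not pass (adjusted p = 0.29, 0.44 and 0.44). At day 0 the genotypes differed by 0.94 without overlap, which did not pass (adjusted p = 0.11). Part of these values comes from D6-deficient day 0 replicate 1, without which the differences between the changes were -0.80, -1.22, -0.40 and -0.70 at days 1, 2, 4 and 6, day 2 alone passing (adjusted p = 0.045), and the day 0 difference was 0.46. At day 2 the genotypes differed by -0.76, which did not pass (adjusted p = 0.17). The group means ran from 5.93 (SD 0.83) in D6-deficient controls and 5.51 in WT skin of day 2 down to 4.61 in D6-deficient skin of day 6, and all 9 pairs of neighbours in this order overlapped.

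Il10 encodes the anti-inflammatory cytokine that gives the wider family its name. The WT values were 4.44, 4.46 and 4.47 at day 0, 3.96, 4.30 and 4.28 at day 1, 4.50, 4.40 and 4.43 at day 2, 5.89, 5.47 and 5.59 at day 4, then 4.92, 4.56 and 4.41 at day 6. The D6-deficient values were 4.18, 4.47 and 3.84 at day 0, 4.24, 4.45 and 4.47 at day 1, 5.34, 4.62 and 4.92 at day 2, 5.23, 5.36 and 5.80 at day 4, then 4.73, 4.17 and 4.20 at day 6. All day 4 samples were above the controls, and at day 2 the D6-deficient samples were above the WT samples. Il10 rose at day 4 by 1.20 in WT (SE 0.19, adjusted p = 2.3e-05) and by 1.30 in D6-deficient skin (SE 0.19, adjusted p = 6.3e-06), and at day 2 by 0.80 in D6-deficient skin (adjusted p = 0.0017). Its changes from day 0 to day 2 differed between the genotypes by 0.81 (adjusted p = 0.083) and its day 2 levels by 0.52 (adjusted p = 0.14), neither of which passed. The order of means began with WT day 4 at 5.65, D6-deficient day 4 at 5.46 and D6-deficient day 2 at 4.96, ended with D6-deficient day 0 at 4.16, and had overlap at all 9 steps. The signal of Il10 was low, with a mean of 4.67 over all arrays, and leaving out the lowest 40% of probe sets removed it.

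Il20ra encodes the chain that binds the IL-20 subfamily ligands together with IL-20RB. The WT values were 6.62, 6.68 and 6.55 at day 0, 6.32, 6.27 and 6.14 at day 1, 6.74, 7.27 and 6.71 at day 2, 5.99, 6.61 and 5.67 at day 4, then 6.50, 6.08 and 6.02 at day 6. The D6-deficient values were 7.54, 7.81 and 7.60 at day 0, 6.04, 6.15 and 6.87 at day 1, 6.52, 5.19 and 5.86 at day 2, 6.37, 6.15 and 6.17 at day 4, then 6.03, 6.38 and 6.70 at day 6. The 3 D6-deficient controls were higher than all other samples, and at day 2 the order was turned, with every D6-deficient sample below every WT sample. Il20ra fell in D6-deficient skin at each day after TPA, most at day 2 with -1.79 (3.46-fold, SE 0.26, adjusted p = 9.5e-06), with differences of -1.29, -1.42 and -1.28 at days 1, 4 and 6. In WT skin it did not pass at any day, with -0.38, 0.29, -0.53 and -0.42 at days 1, 2, 4 and 6. It did pass there at day 4 without WT day 4 replicate 2 (-0.79, adjusted p = 0.029). At day 1 it passed with only the arrays of the contrast (adjusted p = 0.038) and by the methods' t-test unadjusted.

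At day 0 Il20ra in D6-deficient skin exceeded that in WT skin by 1.03 (SE 0.26, adjusted p = 0.046), and by 0.89 and 1.15 within the sets of arrays. This call was lost without any 1 of the 6 control arrays (0.95 to 1.09, adjusted p = 0.10 to 0.13), with no filter on low probe sets (adjusted p = 0.052), with the replicate number as a block (adjusted p = 0.061) and with the array set as a covariate (1.02, adjusted p = 0.0505). At day 2 it was lower in D6-deficient skin, at -1.05 (SE 0.26, adjusted p = 0.019), and -1.13 and -0.88 within the sets. This call was lost without WT replicate 2 (-0.87, adjusted p = 0.11), D6-deficient replicate 2 (-0.72, adjusted p = 0.19) or D6-deficient replicate 3 (-1.05, adjusted p = 0.059) of that day, with only the arrays of the contrast (adjusted p = 0.10), and by the methods' t-test even unadjusted. The difference between the changes from day 0 to day 2 was -2.08 (SE 0.37, 95% interval -2.85 to -1.31, adjusted p = 0.0013). It passed without each of the 12 arrays in turn but not by the methods' t-test adjusted. At days 1, 4 and 6 the differences of -0.92, -0.89 and -0.86 did not pass (adjusted p = 0.41, 0.35 and 0.57). The means ran from 7.65 in D6-deficient controls, through 6.91 in WT skin of day 2, to 5.86 in D6-deficient skin of day 2. The first of these stood apart from the next, WT day 2 stood apart from WT day 0 at 6.62, and the other neighbours overlapped.

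Il20rb encodes the chain common to both IL-20 subfamily receptors. The WT values were 7.58, 7.58 and 7.71 at day 0, 8.00, 8.00 and 7.90 at day 1, 8.27, 8.34 and 8.28 at day 2, 6.30, 7.22 and 5.84 at day 4, then 7.85, 7.87 and 8.03 at day 6. The D6-deficient values were 8.27, 8.22 and 8.09 at day 0, 7.68, 7.46 and 8.01 at day 1, 7.65, 7.70 and 7.63 at day 2, 5.61, 5.98 and 6.16 at day 4, then 7.51, 7.29 and 8.25 at day 6. Day 4 samples of both genotypes were the lowest, below every sample of another day, and the control and day 2 samples of the genotypes did not overlap. Il20rb fell at day 4, by -1.17 in WT (SE 0.23, adjusted p = 3.3e-04) and -2.28 in D6-deficient skin (4.84-fold, SE 0.23, adjusted p = 4.0e-08). The difference between these changes was -1.11 and did not pass (adjusted p = 0.13), but it did without WT day 4 replicate 3 (-1.42, adjusted p = 0.033).

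At day 2 Il20rb rose in WT skin by 0.68 (SE 0.23, adjusted p = 0.034), a call lost without any 1 of its 6 arrays (0.65 to 0.72, adjusted p = 0.056 to 0.091), and was -0.53 from day 0 in D6-deficient skin (adjusted p = 0.075), which passed with only the arrays of the contrast (adjusted p = 0.0034) and by the methods' t-test, unadjusted or adjusted (adjusted p = 0.011). The difference between these changes was -1.21 (SE 0.33, adjusted p = 0.030). It passed without WT or D6-deficient day 0 replicate 3 but not without any 1 of the other 10 arrays (adjusted p up to 0.071). Over all 12 of these fits the values were -1.26 to -1.17. The genotypes differed by 0.58 at day 0 (adjusted p = 0.24) and by -0.64 at day 2 (adjusted p = 0.14), neither of which passed in limma over all arrays, but both did by the methods' t-test unadjusted, and that of day 2 with only the arrays of the contrast (adjusted p = 0.011). In the order of means, WT day 2 at 8.30 and D6-deficient day 0 at 8.20 stood above WT day 1 at 7.97, a run of overlapping groups followed down to WT day 0 at 7.62, and WT day 4 at 6.46 and D6-deficient day 4 at 5.92 stood below it.

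Il10rb encodes the second chain of the IL-10, IL-22 and interferon lambda receptors and is found on most cells. Its group means covered a narrow range, from 9.93 in D6-deficient skin of day 2 to 9.20 in WT skin of day 6. The WT values were 9.67, 9.75 and 9.53 at day 0, 9.79, 9.84 and 9.85 at day 2, then 9.35, 9.14 and 9.12 at day 6. The D6-deficient values were 9.33, 9.30 and 9.29 at day 0 and 9.89, 9.93 and 9.98 at day 2. Samples of day 2 were above the controls in each genotype, and the D6-deficient controls were below the WT controls. Il10rb rose in D6-deficient skin by 0.63 at day 2 (SE 0.10, adjusted p = 3.7e-05) and by 0.54 at day 4 (adjusted p = 1.5e-04) and fell in WT skin by 0.45 at day 6 (adjusted p = 0.0028). The day 0 difference of -0.34 (adjusted p = 0.089) and the difference of 0.46 between the day 2 changes (adjusted p = 0.069) did not pass, nor did those of 0.37 and 0.43 between the changes at days 4 and 6 (adjusted p = 0.31 and 0.42). In the order of means the steps below D6-deficient day 2 and between WT day 2 at 9.82 and WT day 0 at 9.65 were free of overlap, and the other 7 steps were not.

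**Figure D1:**
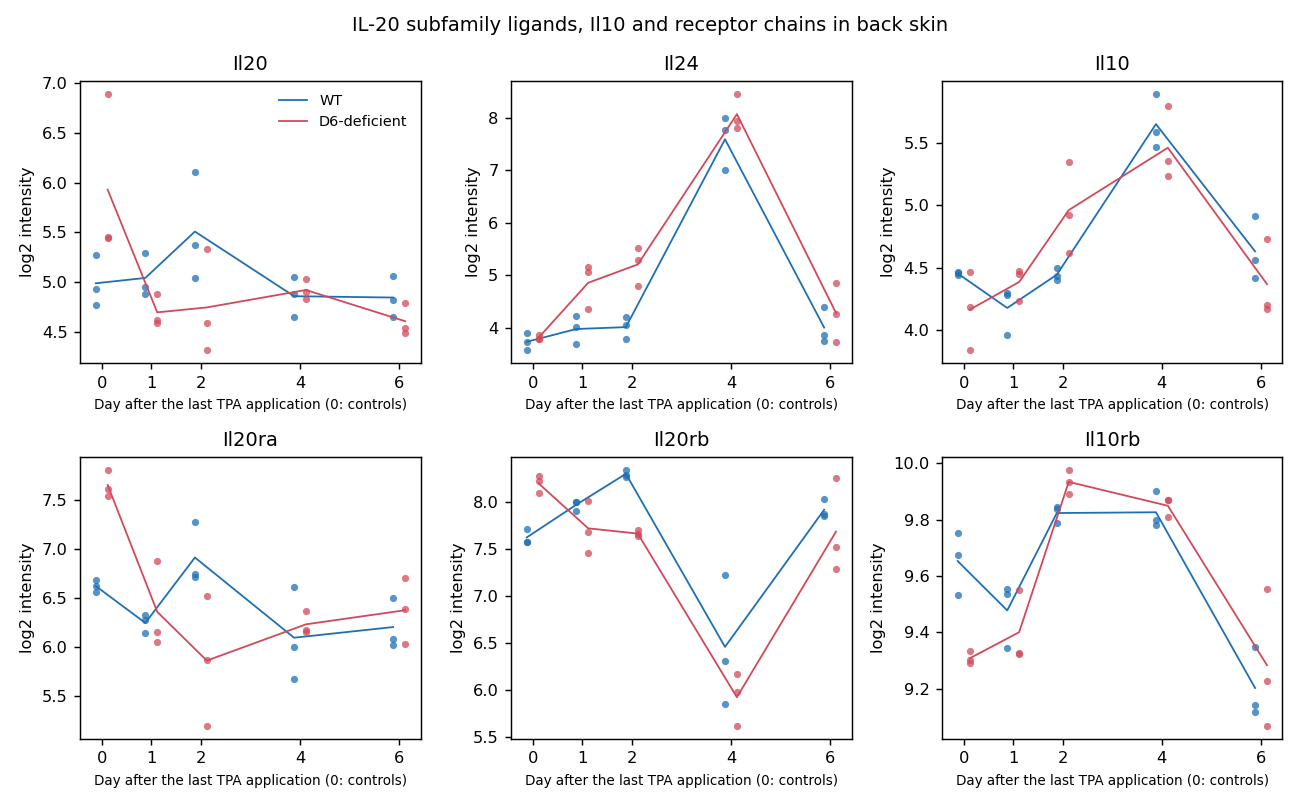
Log2 intensity (y axis, a separate range in each panel) of the 6 measured genes against the day after the last TPA application (x axis, day 0 being the controls), with 1 point per array, 3 per group, and lines through the group means, WT in blue and D6-deficient in red. Il24 reaches means of 7.59 and 8.07 at day 4 while Il20rb has its lowest means, 6.46 and 5.92, on the same day, and Il20ra starts at a mean of 7.65 in D6-deficient and 6.62 in WT controls.

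Each day after TPA was compared with the controls of the same genotype to ask which of the genes respond to the irritant. In WT skin 5 of 24 combinations of gene and day passed, in 4 genes, of which 3 were higher and 2 lower. At day 1 limma passed 0 of the 6 genes (24.0% of all tested probe sets passed), with 0 at an unadjusted p under 0.05 (35.1% of all) and 2 by the methods' t-test unadjusted (30.2% of all) or 1 adjusted (7.08% of all). At day 2 it was 1 of 6 (26.1% of all, 11.0% higher and 15.0% lower), at day 4 it was 3 of 6, 2 higher and 1 lower (39.1% of all, 17.3% higher and 21.8% lower), and at day 6 it was 1 of 6 (22.1% of all). With 6 genes, these shares are not far from those over all probe sets at days 2, 4 and 6.

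In D6-deficient skin 16 of 24 combinations passed, in all 6 genes, with 7 higher and 9 lower. At day 1 there were 3 of 6 (36.3% of all tested probe sets), at day 2 there were 5, 3 higher and 2 lower (38.1% of all, 17.5% higher and 20.6% lower), and at day 4 all 6, 3 higher and 3 lower (41.1% of all, 18.8% higher and 22.4% lower). At day 6 Il20 and Il20ra were lower, 2 of 6 (31.7% of all). With 6 genes, the share at days 1 and 6 is not far from that over all probe sets, and at days 2 and 4 it was above it. A gene passing in 1 genotype alone is not thereby shown to differ between them, so the genotypes were compared directly.

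At day 0 Il20ra, 1 of 6 genes, passed between the genotypes (1.57% of all). At day 2 there were 2 of 6, with Il24 higher and Il20ra lower in D6-deficient skin (4.45% of all, 2.46% higher and 1.99% lower). At days 1, 4 and 6 limma passed 0 of the 6 genes (0.0555%, 0.513% and 0.125% of all), with 1, 1 and 0 at an unadjusted p under 0.05 (8.01%, 10.1% and 8.37% of all), and 1, 0 and 0 by the methods' t-test unadjusted (7.47%, 7.70% and 4.55% of all) and 0 by it adjusted.

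The change from day 0 differed between the genotypes at day 2 for 3 of 6 genes, Il20, Il20ra and Il20rb, all lower in D6-deficient skin (5.40% of all, 2.78% higher and 2.62% lower). Here the members' share was above that over all probe sets in the lower direction. The 3 differences rest on the same 12 arrays. Il24, Il10 and Il10rb had positive differences at day 2, of 1.11, 0.81 and 0.46, none of which passed in limma over all arrays. Il24 passed with only the arrays of the contrast (adjusted p = 0.017), Il10rb by the methods' t-test adjusted (0.48 with control medians, adjusted p = 0.022; 6.56% of all passed) and with the probe sets of a gene averaged (adjusted p = 0.040), and Il10 without D6-deficient day 0 or day 2 replicate 2 (adjusted p = 0.042 and 0.046). At an unadjusted p under 0.05 the day 2 difference was found in all 6 genes, in limma (16.9% of all) and by the methods' t-test (28.8% of all), which takes the control medians as fixed and so leaves out the spread of the controls. At days 1, 4 and 6 limma passed 0 of the 6 genes (0.0194%, 0.608% and 0.0250% of all), with 3, 4 and 4 at an unadjusted p under 0.05 (9.70%, 11.0% and 8.01% of all), and 5, 3 and 4 by the methods' t-test unadjusted (22.7%, 20.1% and 12.2% of all) and 0 by it adjusted.

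**Figure D2:**
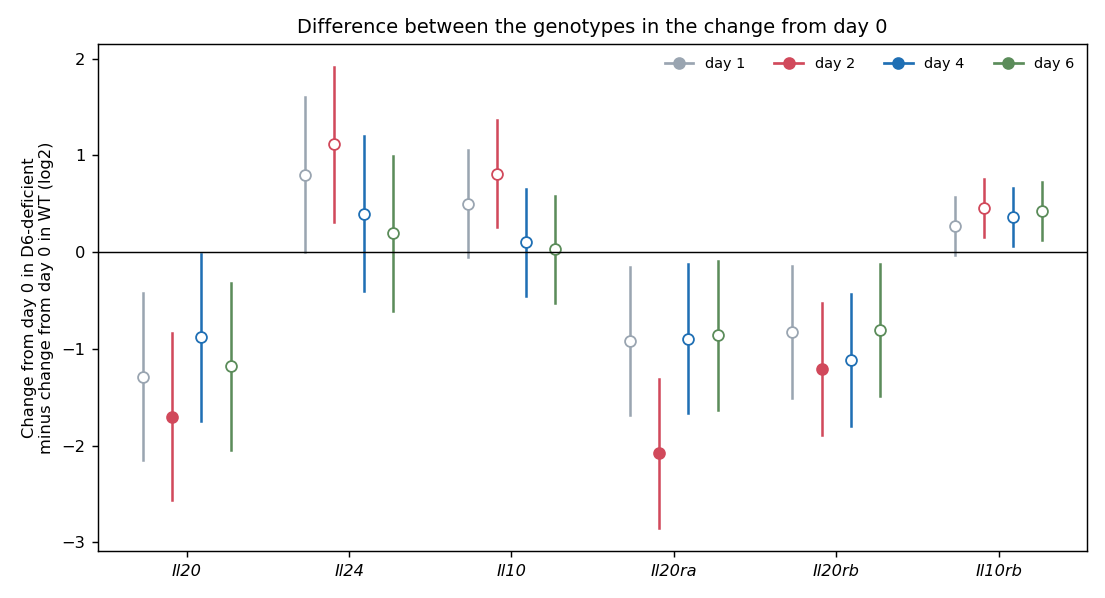
Difference between the genotypes in the log2 change from day 0 (y axis, D6-deficient minus WT) for each of the 6 genes (x axis) at days 1, 2, 4 and 6 by colour, with the 95% interval of limma as a bar, and filled points where the adjusted p was under 0.05. The 3 filled points are Il20 at -1.70, Il20ra at -2.08 and Il20rb at -1.21, all at day 2.

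The 2 sets of arrays held 17 (9 WT and 8 D6-deficient) and 13 (6 and 7), and the values given within them are parts of the same differences, not separate tests. Over the 10 group means Il24 and Il10 had a Pearson correlation of 0.93, Il20 and Il20ra one of 0.89, and Il20rb was opposite to Il24 at -0.95 and to Il10 at -0.88. These are descriptions of 10 means of skin that shares its treatment.

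The genes whose group means were most like Il24 were Steap2 (0.99), Arid3a (0.99), Nlrp12 (0.98), Fam65b (0.98) and B4galt3 (0.98), by Pearson correlation over the 10 means. For Il20 they were 2310029O18Rik (0.94), Spag1 (0.93), Ankrd11 (0.93), Abca3 (0.92) and Fdft1 (0.92), and for Il10 they were Armcx3 (0.99), Gfra1 (0.99), Rap1b (0.99), Hk3 (0.98) and Gm962 (0.98). Fdft1, an enzyme of cholesterol synthesis, stood near Il20ra as well (0.96), with Slc27a4 (0.97), Zbtb7b (0.96), Nr6a1 (0.95) and Tlk1 (0.95). Il20rb was most like Acer1 (0.98), the epidermal alkaline ceramidase, Capns2 (0.98), Ptgfrn (0.98), Ano1 (0.98) and 1110002B05Rik (0.98). Il10rb was most like Tmem106b (0.97), 2210406H18Rik (0.94), Cideb (0.94), Drd2 (0.94) and 4930555F03Rik (0.94).

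A list of 12 partner and signalling genes, of which 11 were tested, holds the ligand Il22, other receptor chains, and JAK, STAT and SOCS genes. In WT skin 2 of the 11 rose at day 2 (11.0% of all probe sets; median of the list 0.07, of all -0.00385), and at day 4 there were 4 higher and 2 lower (17.3% and 21.8% of all; 0.39 against 0.00566). In D6-deficient skin 2 were higher and 3 lower at day 2 (17.5% and 20.6% of all; 0.03 against -0.00876), and 6 higher and 3 lower at day 4 (18.8% and 22.4% of all; 0.57 against 0.00699). With 11 genes, these shares are not far from those over all probe sets except for the higher ones at day 4. Socs1, a feedback inhibitor of JAK kinases, rose at all 4 days in each genotype, by 0.62 to 1.43 in WT and 0.45 to 1.26 in D6-deficient skin, but on its other probe set only day 4 passed (0.48 and 0.39), and days 1, 2 and 6 gave -0.04, 0.28 and 0.11 in WT and 0.14, 0.17 and 0.02 in D6-deficient skin. Socs3, the feedback inhibitor that STAT3 induces, rose at day 4 by 2.19 in WT (SE 0.24, adjusted p = 1.2e-07) and 2.28 in D6-deficient skin (adjusted p = 4.4e-08), the day on which Il24 was highest, and Stat3 itself rose by 0.89 and 0.79. The other 3 probe sets of Stat3 gave 0.34 and 0.30, 0.69 and 0.72, and 0.29 and 0.34 at day 4, the last pair not passing. Whether Il24 has a part in the rises of Socs3 and Stat3 was not tested.

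Il22, a cytokine that shares IL-10RB and IL-22RA1 with the family, is measured by a probe set shared with its copy Iltifb. Its values were 2.84, 2.86 and 3.32 in WT controls, 6.00, 5.02 and 3.75 in WT skin of day 2 and 3.55, 3.95 and 3.81 in WT skin of day 4. In D6-deficient skin they were 3.43, 3.31 and 3.15 in controls, 5.83, 3.44 and 3.90 at day 2 and 7.93, 6.32 and 6.96 at day 4. The D6-deficient samples of day 4 were above all others, and the day 2 samples were widely spread in both genotypes. Il22 rose by 1.92 in WT skin at day 2 (SE 0.46, adjusted p = 0.0031) and by 3.77 in D6-deficient skin at day 4 (SE 0.46, adjusted p = 5.4e-07). The difference between the changes to day 4 was 3.00 (SE 0.65, adjusted p = 0.031), and it did not pass without 8 of its 12 arrays, each left out in turn (adjusted p over all 12 fits 0.031 to 0.088). The control values of Il22 lay below the lowest mean kept, 3.72, so low signal limits the size of its rises and of this difference. At day 2 the difference between the changes was -0.83 and did not pass (adjusted p = 0.59).

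Il22ra2 encodes a soluble decoy receptor for IL-22. Its values were 7.66, 6.79 and 7.41 in WT controls and 6.83, 6.74 and 6.88 in WT skin of day 2, against 8.37, 7.65 and 8.64 in D6-deficient controls and 6.16, 5.30 and 4.98 at day 2. The day 2 samples of D6-deficient skin were below all of these WT samples. Il22ra2 fell by 2.74 in D6-deficient skin at day 2 (SE 0.32, adjusted p = 3.7e-07), and the changes from day 0 differed by -2.27 (SE 0.45, adjusted p = 0.0030). Ifnlr1, under its older symbol Il28ra the interferon lambda receptor chain that pairs with IL-10RB, was 0.46 higher in D6-deficient controls (adjusted p = 0.039), and its changes to day 2 differed by -0.80 (SE 0.16, adjusted p = 0.0036).

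Il10ra, the chain that binds IL-10, was 6.24, 6.40 and 6.22 in WT skin of day 2 and 7.20, 6.84 and 7.04 in D6-deficient skin of that day, without overlap. The difference was 0.74 (SE 0.19, adjusted p = 0.021), and that between the changes from day 0 was 0.86, which did not pass (adjusted p = 0.062). At day 2 the changes from day 0 were lower in D6-deficient skin for 2 of the 11, Il22ra2 and Ifnlr1 (2.62% of all probe sets). The median of the list was -0.17 against -0.0125 over all.

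**Figure D3:**
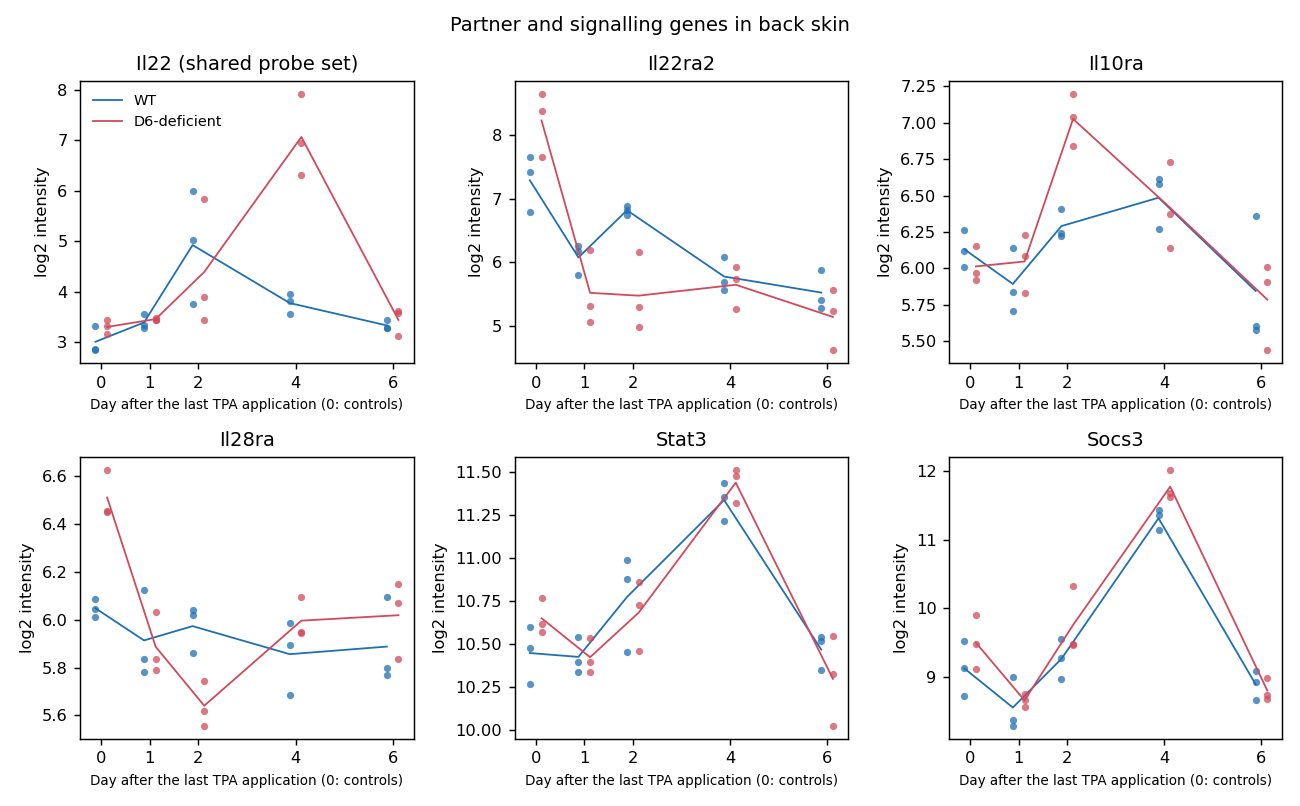
Log2 intensity (y axis, a separate range in each panel) of Il22, Il22ra2, Il10ra, Il28ra (Ifnlr1), Stat3 and Socs3 against the day after the last TPA application (x axis, day 0 being the controls), with 1 point per array, 3 per group, and lines through the means, WT in blue and D6-deficient in red. Il22 has a mean of 7.07 in D6-deficient and 3.77 in WT skin at day 4, and Il22ra2 falls from 8.22 to 5.48 by day 2 in D6-deficient skin.

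Of 13 keratinocyte genes that IL-20 subfamily cytokines and IL-22 are known to raise, 11 were tested, among them calprotectin, defensin and wound keratin genes. In WT skin 9 rose at day 2 (median 3.75; 11.0% of all probe sets) and 9 at day 4 (5.19; 17.3%), and in D6-deficient skin 9 at day 2 (3.42; 17.5%) and 9 at day 4 (3.56; 18.8%). Krt16, a keratin of wounded and psoriatic epidermis, rose at day 4 by 7.05 in WT and 4.24 in D6-deficient mice, and Defb4, an antimicrobial defensin, by 3.62 and 3.14. At day 0, 3 of the 11 were higher in D6-deficient skin (0.713% of all probe sets). These were Krt6b by 3.51 (SE 0.79, adjusted p = 0.024), Krt16 by 2.48 (SE 0.54, adjusted p = 0.018) and S100a8 by 2.41 (SE 0.58, adjusted p = 0.035), where the groups overlapped for Krt6b and S100a8. The changes to day 2 differed for Krt17, a wound keratin, by -1.04 and for Mmp3, a matrix protease, by 1.29 (median of the list -0.63). Of all probe sets, 2.62% passed as lower and 2.78% as higher there. Krt17 and Mmp3 did not pass without 7 and 9 of the 12 arrays, each left out in turn.

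Of 12 differentiation genes that these cytokines are known to lower, 11 were tested. In WT skin 8 rose at day 2 (median 2.02; 11.0% of all probe sets), and at day 4 there were 4 higher and 5 lower (0.04; 17.3% and 21.8%). In D6-deficient skin 4 rose at day 2 (0.65; 17.5%), and at day 4 there were 1 higher and 7 lower (-1.40; 18.8% and 22.4%). The day 4 differences from day 0 were -4.27 in WT and -5.52 in D6-deficient mice for Krt10, the keratin of suprabasal cells, -2.52 and -4.46 for its partner Krt1, and -2.36 and -4.38 for Lor, which encodes the cornified envelope protein loricrin. On the other probe set of Lor they were -1.77 and -2.97. The changes to day 4 differed between the genotypes for Flg, which encodes filaggrin, by -3.08 (SE 0.72, adjusted p = 0.046) and for Casp14, the caspase of cornification, by -2.06 (SE 0.36, adjusted p = 0.0098). Of all probe sets, 0.416% passed as lower in that comparison. On the other probe set of Casp14 the day 4 difference was -0.36 and did not pass. At day 2 the changes were lower in D6-deficient skin for 3 of the 11 (2.62% of all probe sets, median of the list -1.21 against -0.0125 over all). These were Ivl, the envelope protein involucrin, by -1.96 (adjusted p = 0.018), Casp14 by -1.44 (adjusted p = 0.018) and Klk7, a protease of shedding corneocytes, by -1.15 (adjusted p = 0.0092). On the other probe sets the day 2 values were -0.28 for Casp14, which did not pass, and -1.77 for Ivl (adjusted p = 0.043). The Flg value did not pass without 8 of its 12 arrays, each left out in turn (adjusted p over all 12 fits 0.0075 to 0.13). Nor did it pass with no filter (adjusted p = 0.052), the replicate block (adjusted p = 0.061), only the arrays of the contrast (adjusted p = 0.16) or the methods' t-test adjusted (adjusted p = 0.20).

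Markers of the cells that make or receive these cytokines also changed over the days, but not all in the same direction or on the same day. The summed linear intensity of 6 neutrophil genes, Csf3r the most abundant, was 375, 326 and 292 in WT controls, 677, 1197 and 589 at day 2 and 5183, 3153 and 6313 at day 4. In D6-deficient skin it was 317, 324 and 315 in controls, 2623, 5851 and 8891 at day 2 and 6888, 6299 and 6138 at day 4. The day 2 samples of D6-deficient skin stood above those of WT skin, and day 4 was high in both. All 6 genes were higher in D6-deficient skin at day 2 (2.46% of all probe sets, median of the 6 genes 3.21), the day of its higher Il24. A higher change from day 0 was found for 5 of the 6 genes (2.78% of all probe sets, median 3.22). Their part in the cytokine results was not tested.

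The 5 macrophage or monocyte genes, Lyz2 the most abundant, had their highest mean sum in D6-deficient skin of day 2 (29094) and their lowest in D6-deficient skin of day 4 (13508). Compared with day 0, day 4 had 2 of the 5 higher and 3 lower, the same genes for each genotype. Cd68 was higher by 1.49 for D6-deficient mice (WT 1.23) and Cd14 by 2.51 (WT 1.60). Csf1r, Emr1 and Lyz2 were lower, at -0.97, -0.92 and -0.82 (WT -1.01, -0.62 and -0.86). Of all probe sets, 18.8% passed as higher and 22.4% as lower there (WT 17.3% and 21.8%). At day 2, 3 of the 5 exceeded their WT level in D6-deficient skin (2.46% of all probe sets), with Cd14 by 1.62 and Cd68 by 0.82. At day 0, 1 of the 5 was lower in D6-deficient skin (0.855% of all), Cd68 by -0.83 (adjusted p = 0.038). The 4 keratinocyte genes, Krt14 the most abundant, summed to 17281, 17856 and 17671 in WT controls and to 29006, 24989 and 28288 in D6-deficient controls, with no overlap. At day 0, 3 of the 4 were higher in D6-deficient skin (0.713% of all probe sets), the controls in which Il20ra was higher too. These were Krt5 by 0.70 (adjusted p = 0.0099), Krt14 by 0.73 (adjusted p = 0.017) and Trp63 by 0.71 (adjusted p = 0.025). The keratinocyte sum was lowest in D6-deficient skin of day 4, at 12445, 14690 and 17705, the group with the lowest Il20rb. Its highest mean, 32163, was in D6-deficient skin of day 2, the group with the lowest Il20ra. There 2 of the 4 were higher than at day 0, Krt5 by 0.43 and Krt14 by 0.86 (17.5% of all probe sets). The other 2 were lower, Krt15 at -3.64 and Trp63 at -0.41 (20.6% of all, median of the 4 genes 0.01). The changes from day 0 were lower in D6-deficient skin for 2 of the 4 at day 2 (2.62% of all), Krt15 by -1.70 and Trp63 by -0.97, beside the lower changes of Il20, Il20ra and Il20rb. At day 4 they were lower for 3 of the 4 (0.416% of all), Krt5 by -1.36, Krt14 by -1.23 and Trp63 by -1.03 (median -1.21), beside those of Flg and Casp14. The part of the keratinocyte and macrophage markers in these results was not tested.

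The 4 dendritic or Langerhans cell genes, Epcam the most abundant, had sums of 1841, 1034 and 1297 in D6-deficient skin of day 2 against 3436, 2733 and 3243 in WT skin of that day. Of them, 2 were lower in D6-deficient skin at day 2 (1.99% of all probe sets), Cd207, the langerin gene, by -2.38 and Epcam by -1.26. Itgax and Flt3 were at 0.46 and 0.11 and did not pass. The highest group mean was 1.70 times the lowest for 5 measured T cell genes, 1.66 for 4 mast cell genes, 1.42 for 2 tested B cell genes, 2.12 for 3 endothelial genes, 1.28 for 3 fibroblast genes and 1.52 for 2 measured adipocyte genes. For the 3 skeletal muscle genes the mean sum ran from 48394 in WT controls to 17047 in D6-deficient skin of day 1, a ratio of 2.84. All 3 were lower than at day 0 at days 2 and 4, in WT (15.0% and 21.8% of all probe sets) and in D6-deficient skin (20.6% and 22.4%). The part of these cells in the results was not tested.

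**Figure D4:**
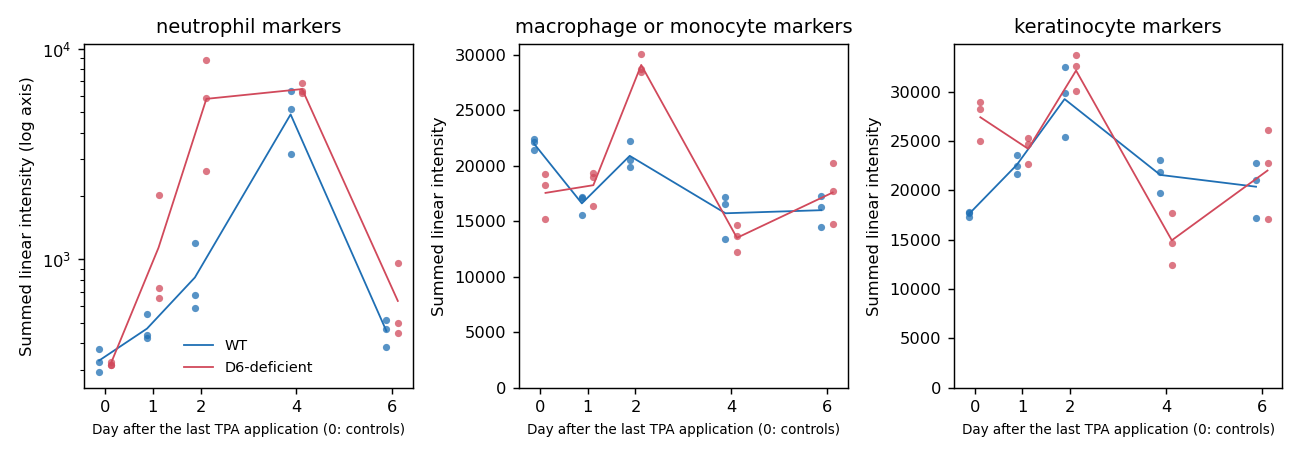
Summed linear intensity (y axis, logarithmic for neutrophil genes and from 0 for the others) of neutrophil, macrophage or monocyte, and keratinocyte marker genes against the day after the last TPA application (x axis, day 0 being the controls), with 1 point per array, 3 per group, and lines through the means, WT in blue and D6-deficient in red. D6-deficient skin of day 2 lies at 2623 to 8891 for neutrophil genes against 589 to 1197 in WT skin, and D6-deficient controls lie above WT controls for keratinocyte genes.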

How the data were processed

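The authors processed Affymetrix Mouse430_2 arrays of back skin with RMA (background correction, quantile normalization, summarization) in GeneSpring and deposited linear intensity values, from which log2 was taken here without further scaling. Of 45037 probe sets, besides 64 controls, the 20% with the lowest mean (9008, lowest mean kept 3.72) were left out and 36029 tested. A limma fit (lmFit, eBayes) took in the 30 arrays, with a separate mean for the 10 groups, leaving 20 residual degrees of freedom. Days were compared with day 0 within each genotype, genotypes at each day, and genotypes in their change from day 0, adjusting p over every tested probe set by Benjamini-Hochberg, with 0.05 as the threshold, whereas the methods use an unpaired t-test and a change of more than 3-fold.

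The genes named are the members, the partner, raised and lowered lists, the cell type markers, 5 most alike genes for each member, and the receptor gene. For lists and markers the probe set with the highest mean stands for a gene. The members and lists were chosen with earlier results of these data known. Il28b, S100a7a, Defb14, Flg2, Tcrd-V1 and Plin1 were not matched to a probe set, and Ms4a1 was below the filter. A gene of the partner list is not reported here, and the counts of that list are without it.

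The alternatives were no filter or one of 40%, median centring, the contrast's arrays alone, the methods' t-test with unadjusted or adjusted p (for changes from day 0, on values relative to the control median), an intensity trend, a 3-fold threshold, a replicate block, array sets from 18 hybridization control probe sets as a covariate, averaged probe sets, and each replicate left out. The methods' t-test with the 3-fold threshold, all alternatives for list genes, and replicates left out for member differences that did not pass, were added after seeing the data. Replicate numbers were not used for pairing: the correlation of same-number residuals had a median of -0.03 over 39 pairs. The model was also run on simulated arrays, of which no result is given or used here. R 4.3.3, limma 3.58.1, Python 3.11.15 and matplotlib 3.10.9 were used. Histology, PCR and pathway results were not used.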

Additional observations from a re-analysis of the deposited data

Results flagged for a closer look

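The change from day 0 differed between the genotypes, by limma's test of that difference, for 3 of the 6 genes, each at day 2 and each lower in D6-deficient skin: Il20 by -1.70, Il20ra by -2.08 and Il20rb by -1.21 on the log2 scale. Of all probe sets 5.40% passed there, 2.62% lower. Leaving out 1 array at a time, Il20ra passed in all 12 fits, Il20 in 10 and Il20rb in 2. In level, D6-deficient skin exceeded WT skin at day 0 by 0.94, 1.03 and 0.58 for Il20, Il20ra and Il20rb. At day 2 the level differences were -0.76, -1.05 and -0.64, and on both days only that of Il20ra passed. Among partner genes the change from day 0 differed for Il22 at day 4 by 3.00 and at day 2 for Il22ra2 by -2.27 and Ifnlr1 by -0.80. Of these Il22ra2 and Ifnlr1 passed in all 12 such fits and Il22 in 4.

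Among genes known to be raised by these cytokines, the change to day 2 differed for Krt17 by -1.04 and Mmp3 by 1.29. Krt17 did not pass in 7 of 12 fits without 1 array (adjusted p over all 12 fits 0.029 to 0.14) or on its other probe sets (-0.66 and 0.01). Mmp3 did not pass in 9 of 12 such fits (adjusted p over all 12 fits 0.012 to 0.13). Among differentiation genes it differed at day 2 for Ivl by -1.96, Casp14 by -1.44 and Klk7 by -1.15, and at day 4 for Flg by -3.08 and Casp14 by -2.06. Ivl did not pass without WT day 2 replicate 1 (-1.87), D6-deficient day 0 replicate 1 (-1.77) or D6-deficient day 2 replicate 2 (-1.86). Casp14 at day 2 did not without WT day 2 replicate 2 (-1.29), D6-deficient day 0 replicate 1 (-1.31) or D6-deficient day 0 replicate 3 (-1.34), and Klk7 and Casp14 at day 4 passed in all 12.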

How the results depend on the processing

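No direction turned for the 27 member calls or for the 10 listed-gene differences between changes that were run under the alternatives. Of 321 values of member calls under the alternatives, 252 kept direction and side of the threshold and 69 fell short of it, as did 30 of 180 with 1 array left out. For listed genes whose changes differed, 18 of 119 and 38 of 120 fell short. Median centring kept all 27 member calls and took the median change of all probe sets to at most 0.12 (D6-deficient day 4, from 0.00699).

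Under the methods' t-test unadjusted, the counts were 8 for WT days (5 in limma), 14 for D6-deficient days (16), 3 for day 0 (1), 4 between genotypes after TPA (2) and 18 for changes from day 0 (3), where this test takes the control medians as fixed, without the spread of the controls. With that test adjusted they were 4 for WT days, 10 for D6-deficient days, 0 for day 0, 0 between genotypes after TPA and 2 for changes from day 0, where Il20 and Il20ra were lost and Il10rb was gained. Requiring more than 3-fold gave 1 for WT days, 3 for D6-deficient days, 0 for day 0, 0 between genotypes after TPA and 2 for changes from day 0. With only the arrays of the contrast, lost calls were Il20 at days 4 and 6 in D6-deficient skin, the day 2 level difference of Il20ra and the difference between the day 2 changes of Il20. Gained ones were Il20ra and Il20rb in WT skin of day 1, Il20rb in D6-deficient skin of days 1 and 2, its day 2 level difference and the difference between the day 2 changes of Il24. The methods' t-test with 3-fold, added after seeing the data, gave 1, 3, 0 and 0, and 1 for changes from day 0. The day 0 count was also 0 with no filter, with array set as a covariate and with the replicate block. With the replicate block the other counts were 5, 16, 2 and 3. Thresholds on fold and the t-test's own spread from 6 arrays are part of these settings, and for the rest the cause was not tested. The 40% filter left out Il10.

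With each replicate left out, counts ran from 4 to 6 for WT days, 15 to 19 for D6-deficient days, 0 to 0 for day 0, 0 to 3 between genotypes after TPA and 1 to 4 for changes from day 0. Day 0 levels of Il24, at 3.73 and 3.81, are near the lowest mean kept, 3.72, and those of Il22 are below it, where signal over background limits what can be measured.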
